A study of Mus musculus with 3 samples.

Results

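The miR-17-92 cluster, its paralogue cluster miR-106b-25 and the related miR-32 were examined as 10 mature miRNAs, chosen by name from the 1915 mature miRNAs listed in each library. They are miR-17-5p, miR-18a-5p, miR-19a-3p, miR-19b-3p, miR-20a-5p and miR-92a-3p of the first cluster, miR-106b-5p, miR-93-5p and miR-25-3p of the second, and miR-32-5p. Small RNA had been sequenced from exosomes of B16 cells, from exosomes of JB6 cells and from B16 cells. Both B16 libraries are labelled as melanoma of skin in strain C57BL/6J, and the JB6 library as normal skin in strain BALB/c. No drug or genetic treatment is named for any of them. Exosomes, small vesicles that cells release, had been collected by ultracentrifugation, and RNA was extracted with Trizol. With 1 library in each group, none of the differences could be checked against replicates, and the exact 95% intervals in parentheses cover counting error only. No molecular identifiers are named for the reads, which are not independent molecules. Cell line, strain and disease state cannot be told apart between B16 and JB6 exosomes. JB6 cells were not analysed here, so between JB6 exosomes and B16 cells those differences cannot be told apart from the step from cell to vesicle either.

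A miRNA recognises its messenger RNA targets mainly through its seed, bases 2 to 8 from the 5′ end, and miRNAs with the same seed share most predicted targets. The cluster miR-17-92 is made from 1 primary transcript that MYC activates, is amplified in human B-cell lymphoma and promotes proliferation and survival. Its miR-17 and miR-20a, with miR-93 and miR-106b of the paralogue cluster, repress the cell-cycle inhibitor Cdkn1a. The relatives miR-92a, miR-25 and miR-32 repress the pro-apoptotic Bcl2l11.

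The mature sequences are shown because the seed defines the groups compared below. Each is written 5′ to 3′ with the seed in capitals, as RefSeq gives it for GRCm38.p6, and all 10 members were matched by name.
miR-17-5p: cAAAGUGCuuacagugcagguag
miR-20a-5p: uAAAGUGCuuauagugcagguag
miR-93-5p: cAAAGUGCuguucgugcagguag
miR-106b-5p: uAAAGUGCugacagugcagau
miR-18a-5p: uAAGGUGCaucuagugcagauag
miR-19a-3p: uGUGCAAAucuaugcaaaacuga
miR-19b-3p: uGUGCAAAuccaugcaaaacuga
miR-92a-3p: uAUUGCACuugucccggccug
miR-25-3p: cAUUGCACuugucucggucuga
miR-32-5p: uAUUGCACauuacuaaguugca
The members form 4 seed groups, named here after miR-17, miR-18, miR-19 and miR-25. The seed AAAGUGC is shared by miR-17, miR-20a, miR-93 and miR-106b, AAGGUGC belongs to miR-18a, GUGCAAA to miR-19a and miR-19b, and AUUGCAC to miR-92a, miR-25 and miR-32. Within the last group miR-32 stands apart in sequence. Compared base by base from the 5′ end, miR-92a-3p and miR-25-3p differ at 3 of 21 bases, whereas miR-32-5p differs from miR-25-3p at 9 of 22 and from miR-92a-3p at 10 of 21. The pair miR-19a-3p and miR-19b-3p differs at 1 of 23 bases and miR-17-5p and miR-20a-5p at 2 of 23, so reads of these near-identical miRNAs may have been divided between them by a rule not given in the sources used here.

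The seed groups cut across the genes. On build GRCm38 the hairpins from Mir17 to Mir92-1 lie within 836 bases at chr14:115043671-115044506 on the plus strand, in an exon of the long non-coding RNA Mir17hg. Mir106b, Mir93 and Mir25 lie within 498 bases at chr5:138165321-138165818 on the minus strand, inside Mcm7, which encodes a subunit of the replicative helicase. Mir106b overlaps none of its exons, and Mir93 and Mir25 overlap only an exon of a retained-intron transcript. Mir32 lies at chr4:56895229-56895298 on the minus strand, in an intron of Tmem245. Mature miR-19b-3p and miR-92a-3p have a further identical copy each in the cluster on chromosome X, at the hairpins Mir19b-2 and Mir92-2, so their reads cannot be assigned to 1 locus.

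The libraries differed greatly in depth, with 45677 reads assigned to mature miRNAs in B16 exosomes, 4495956 in JB6 exosomes and 7925726 in B16 cells. No listed count was below 10, so a listed 0 stood for at most 9 reads, which on the scale of miRNA reads-per-million (RPM) is 197 RPM in B16 exosomes, 2.002 RPM in JB6 exosomes and 1.14 RPM in B16 cells. The melanocyte miRNA miR-211-5p had 83 reads in B16 exosomes and 21080 in B16 cells, and was listed at 0 in JB6 exosomes. The other melanocyte marker, miR-204-5p, was listed at 0 in B16 exosomes, with 14 reads in JB6 exosomes and 60 in B16 cells. Of 6 epithelial markers none was listed in B16 exosomes, 2 in JB6 exosomes with 35 reads, and 4 in B16 cells with 197 reads. The keratinocyte miRNA miR-205-5p was at 0 in all 3 libraries. All 3 liver markers were listed in JB6 exosomes and in B16 cells, and 2 in B16 exosomes, where miR-194-5p was at 0. Together they held 25.2% of the miRNA reads of JB6 exosomes, against 0.0963% in B16 exosomes and 0.0686% in B16 cells. Almost all of that sum in JB6 exosomes was miR-122-5p, with 1129522 reads, against 24 in B16 exosomes and 421 in B16 cells. miR-194-5p was lower in JB6 exosomes, at 28.2 RPM, against 109.8 RPM in B16 cells. Of 5 red blood cell markers, none was listed in B16 exosomes, 4 in JB6 exosomes with 1.48% of reads and miR-144-5p at 0, and 3 in B16 cells with 0.00402%. Within these sums miR-486a-5p and miR-486b-5p had equal counts, 32994 each in JB6 exosomes and 153 each in B16 cells, so the same reads may be listed under both names and the sums may count them more than once. Of 4 skeletal muscle markers, none was listed in B16 exosomes, 3 in JB6 exosomes with 0.371% of reads and miR-133b-3p at 0, and 1 in B16 cells with 11 reads. Of 4 leukocyte markers, none was listed in B16 exosomes, 3 in JB6 exosomes with 69 reads and 1 in B16 cells with 10 reads. In such bulk samples, fewer vesicles or cells that carry a miRNA and less of it in each cannot be told apart.

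Together the 10 members held 3.54% of the miRNA reads of B16 exosomes (3.37 to 3.72), 6.40% of those of JB6 exosomes (6.37 to 6.42) and 3.76% of those of B16 cells (3.75 to 3.78). Of the 10 members 8 were listed above 0 in B16 exosomes, and all 10 were listed in JB6 exosomes and in B16 cells. The sums lay within 2-fold of each other, but the members behind them differed. Leaving out miR-92a-3p and miR-25-3p, the other 8 members held 0.990% of reads in B16 exosomes (0.901 to 1.08), 0.0379% in JB6 exosomes (0.0361 to 0.0398) and 1.45% in B16 cells (1.44 to 1.45).

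**Figure D1:**
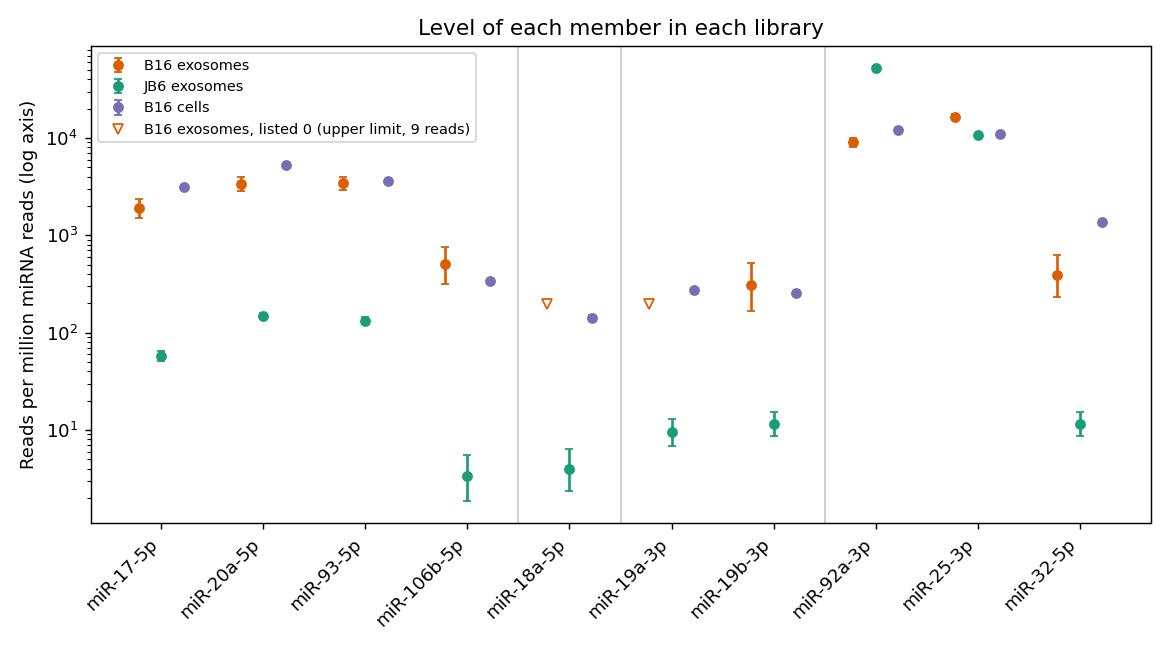
Level of each member in RPM of miRNA reads (log axis) in the libraries of B16 exosomes, JB6 exosomes and B16 cells, with exact 95% counting intervals, grouped by seed between the grey lines. Open triangles mark a listed 0, drawn at the upper limit of 9 reads. In JB6 exosomes only miR-92a-3p, at 5.27% of reads, and miR-25-3p, at 1.08%, stand near or above the B16 libraries.

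The miR-17 seed group was common in both B16 libraries and scarce in JB6 exosomes. miR-20a-5p had 154 reads in B16 exosomes (3371 RPM, 2861 to 3947), 668 in JB6 exosomes (149 RPM, 138 to 160.3) and 42339 in B16 cells (5342 RPM, 5291 to 5393). miR-93-5p had 156 reads (3415 RPM, 2901 to 3994) in B16 exosomes, 599 (133 RPM, 123 to 144) in JB6 exosomes and 28551 (3602 RPM, 3561 to 3644) in B16 cells. miR-17-5p had 87 reads (1905 RPM, 1526 to 2349) in B16 exosomes, 258 (57.4 RPM, 50.6 to 64.8) in JB6 exosomes and 24765 (3125 RPM, 3086 to 3164) in B16 cells. In each case the interval of JB6 exosomes lay far below those of both B16 libraries. miR-106b-5p was the scarcest of the group, with 23 reads (504 RPM, 319 to 755) in B16 exosomes, 15 (3.34 RPM, 1.87 to 5.50) in JB6 exosomes and 2662 (336 RPM, 323 to 349) in B16 cells. Summed, the group held 0.919% of reads in B16 exosomes (0.834 to 1.01), 0.0343% in JB6 exosomes (0.0326 to 0.0360) and 1.24% in B16 cells (1.23 to 1.25).

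The miR-18 and miR-19 groups were scarce in every library. miR-18a-5p was listed at 0 in B16 exosomes and had 18 reads in JB6 exosomes (4.004 RPM, 2.37 to 6.33) and 1131 in B16 cells (143 RPM, 135 to 151). At its share of the B16 cells, 6.52 reads would have been expected in B16 exosomes, which is below the smallest listed count, so a lower share was not detectable at this depth. miR-19a-3p was listed at 0 in B16 exosomes, with 43 reads in JB6 exosomes (9.56 RPM, 6.92 to 12.9) and 2165 in B16 cells (273 RPM, 262 to 285). miR-19b-3p had 14 reads in B16 exosomes (306 RPM, 168 to 514), 52 in JB6 exosomes (11.6 RPM, 8.64 to 15.2) and 2028 in B16 cells (256 RPM, 245 to 267). Mir19a and Mir19b-1 sit in the same transcript as Mir17, whereas reads of miR-19b-3p may also come from the copy on chromosome X. The ratio of miR-17-5p to miR-19b-3p reads was 6.21 in B16 exosomes (3.51 to 11.8), 4.96 in JB6 exosomes (3.67 to 6.82) and 12.2 in B16 cells (11.7 to 12.8).

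The miR-25 seed group held the most abundant members in all 3 libraries, miR-92a-3p and miR-25-3p. miR-92a-3p had 412 reads in B16 exosomes, or 0.902% (0.817 to 0.993), 237054 in JB6 exosomes, or 5.27% (5.25 to 5.29), and 96572 in B16 cells, or 1.22% (1.21 to 1.23). It ranked 23 among the miRNAs of B16 exosomes, 3 in JB6 exosomes and 19 in B16 cells. miR-25-3p had 754 reads in B16 exosomes, or 1.65% (1.54 to 1.77), 48780 in JB6 exosomes, or 1.08% (1.08 to 1.09), and 87083 in B16 cells, or 1.10% (1.09 to 1.11), and so varied little on this scale. miR-32-5p, with the same seed, was scarcest where miR-92a-3p was most abundant. It had 18 reads in B16 exosomes (394 RPM, 234 to 623), 52 in JB6 exosomes (11.6 RPM, 8.64 to 15.2) and 10946 in B16 cells (1381 RPM, 1355 to 1407), and it ranked 123 in B16 exosomes, 236 in JB6 exosomes and 68 in B16 cells.

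Ordered by reads, members of 21 to 23 bases in length took different places in each library. In B16 exosomes miR-25-3p led, followed by miR-92a-3p, then miR-93-5p and miR-20a-5p, whose intervals overlapped, then miR-17-5p, and then miR-106b-5p, miR-32-5p and miR-19b-3p with overlapping intervals, while miR-18a-5p and miR-19a-3p were listed at 0. In JB6 exosomes miR-92a-3p led and miR-25-3p was second. There miR-20a-5p and miR-93-5p overlapped, miR-17-5p followed, and miR-19b-3p, miR-32-5p and miR-19a-3p overlapped, as did miR-18a-5p and miR-106b-5p at the low end. In B16 cells the order was miR-92a-3p, miR-25-3p, miR-20a-5p, miR-93-5p, miR-17-5p, miR-32-5p, miR-106b-5p, miR-19a-3p, miR-19b-3p and miR-18a-5p, and of the neighbours only miR-19a-3p and miR-19b-3p overlapped.

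B16 exosomes were set against B16 cells, which asks whether members are over- or under-represented in the vesicles of the melanoma line. Of the 8 members with reads in both, 7 held shares within 2-fold of each other in vesicles and cells, and miR-32-5p did not. To be called higher or lower, a miRNA needed 30 or more reads in sum, a share of miRNA reads at least 2-fold apart and an interval excluding 1. None of the 10 members was higher, 1 was lower, 7 were neither and 2 were not resolved because of a listed 0. Of all 422 miRNAs evaluated, 8.53% were higher and 7.82% lower by this rule. Of these 422, 267 were not resolved because of a listed 0 and stay in the total of both percentages, which are therefore low. The lower member was miR-32-5p, with a ratio of 0.285 (0.169 to 0.451). Within the miR-17 seed group, miR-17-5p had a ratio of 0.610 (0.488 to 0.752), miR-20a-5p of 0.631 (0.535 to 0.739), miR-93-5p of 0.948 (0.805 to 1.11) and miR-106b-5p of 1.50 (0.949 to 2.25). miR-92a-3p had a ratio of 0.740 (0.670 to 0.815), miR-25-3p of 1.50 (1.40 to 1.61) and miR-19b-3p of 1.20 (0.654 to 2.01). With 9 reads for the listed 0, the ratio was at most 0.721 for miR-19a-3p and at most 1.38 for miR-18a-5p, and both intervals included 1.

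Summed by seed, the B16 exosome to cell ratio was 0.741 for the miR-17 seed group (0.672 to 0.816) and 1.06 for the miR-25 seed group (0.996 to 1.12). For miR-19 it was 0.579 (0.316 to 0.973) as listed, or up to 0.952 with 9 reads for the listed 0 of miR-19a-3p. By transcript, the members of miR-17-92 had a ratio of 0.685 (0.634 to 0.739), the members of miR-106b-25 of 1.37 (1.28 to 1.46) and miR-32 that given above. The median log2 ratio of the 8 members listed in both libraries was -0.26, beside 0.03 for all 144 evaluated miRNAs listed in both. Only miRNAs above 197 RPM in B16 exosomes, against 1.14 RPM in B16 cells, could enter these medians, so both may lie too high. The ratios of B16 exosomes to B16 cells move with the scaling of the libraries. DESeq2 size factors shifted every log2 ratio by only -0.13, and totals without the most abundant miRNAs by 0.08. Under both, 0 members were higher and 1 was lower. Among all miRNAs 33 were higher and 38 lower with the first, and 36 and 29 with the second. TMM factors shifted every log2 ratio by -1.02, with 6 members lower and 16 higher and 93 lower among all miRNAs, against 36 and 33 by the sum of miRNA counts. The authors' totals shifted them by -4.08, with all 10 members lower and 9 higher and 257 lower among all miRNAs. Ratios above 1 lay below it with TMM factors and with the authors' totals. With TMM factors that of miR-25-3p was 0.741, that of miR-106b-5p 0.740 and that of miR-19b-3p 0.591, and with the authors' totals they were 0.0891, 0.0889 and 0.0710. miR-32-5p was lower under every scaling tried.

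B16 exosomes were next set against JB6 exosomes, which addresses the difference in vesicle content between the melanoma line and the skin line labelled as normal. Of the 10 members 6 were higher in B16 exosomes, 1 was lower, 1 was neither, 1 was not resolved and 1 had too few reads. Among all 300 miRNAs evaluated, 31.3% were higher and 11.7% lower. Of these 300, 146 were not resolved because of a listed 0 and stay in the total of both percentages, which are therefore low. Every member of the miR-17 seed group was higher. miR-106b-5p was 151-fold higher (75.4 to 311), miR-17-5p was 33.2-fold higher (25.7 to 42.5), miR-93-5p 25.6-fold (21.4 to 30.6) and miR-20a-5p 22.7-fold (18.9 to 27.1). miR-32-5p was 34.1-fold higher (18.8 to 59.2) and miR-19b-3p 26.5-fold (13.6 to 48.5). The lower member was miR-92a-3p, by 5.85-fold (5.31 to 6.45), and miR-25-3p had a ratio of 1.52 (1.41 to 1.63). miR-19a-3p, with a listed 0 against 43 reads, could not be placed, and miR-18a-5p had only 18 reads over the pair.

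As a sum, the miR-17 seed group was 26.8-fold higher in B16 exosomes than in JB6 exosomes (24.0 to 29.9), miR-19 was 14.5-fold higher as listed (7.64 to 25.6), or up to 23.8-fold with 9 reads for the listed 0, and the miR-25 seed group was 2.45-fold lower (2.32 to 2.60). The last of these rested on miR-92a-3p, since without it the ratio was 1.56 (1.45 to 1.67). The median log2 ratio of the 8 members listed in both libraries was 4.70, against 2.62 for all 131 evaluated miRNAs listed in both. Only miRNAs above 197 RPM in B16 exosomes, against 2.002 RPM in JB6 exosomes, could enter these medians. Those scarcer in B16 exosomes, such as miR-18a-5p, miR-19a-3p and miR-92b-3p, were left out, so both medians may lie too high. Scaling changed 3 of these 7 calls. With the authors' totals, which shifted every log2 ratio by -3.89, miR-20a-5p, miR-93-5p and miR-19b-3p left the rule, and the miR-17 seed group had a ratio of 1.81. With TMM factors (shift -2.37) that group was 5.20-fold higher and with DESeq2 size factors (shift -2.70) 4.12-fold higher. miR-25-3p was lower with TMM factors (ratio 0.295), DESeq2 size factors (0.233) and the authors' totals (0.103). Among all miRNAs, 94 were higher and 35 lower by the sum of miRNA counts, 61 and 97 with TMM, 57 and 109 with DESeq2, and 40 and 153 with the authors' totals.

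**Figure D2:**
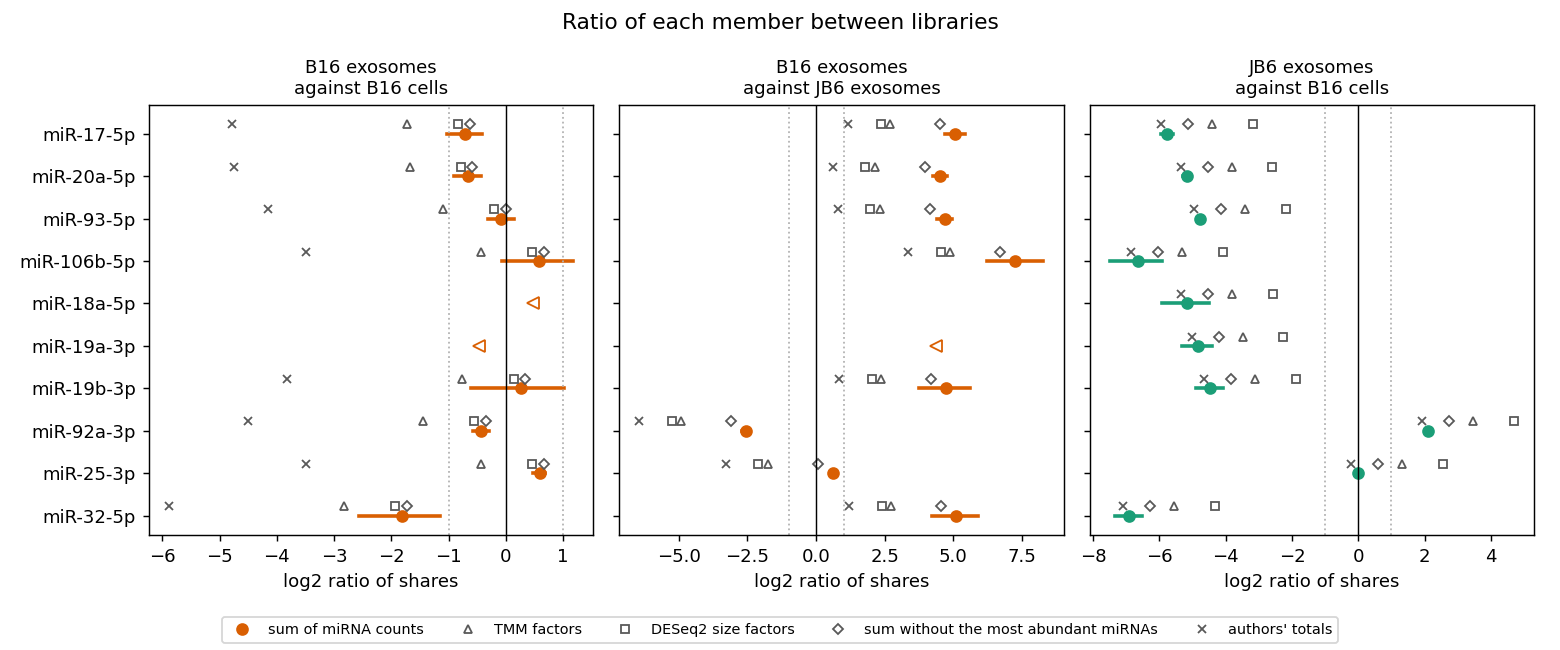
Log2 ratio of shares of each member in 3 panels (B16 exosomes over B16 cells, B16 exosomes over JB6 exosomes, JB6 exosomes over B16 cells), with the sum of miRNA counts as the scale (filled circles, bars are exact 95% counting intervals) and with 4 other scalings (grey symbols). Open triangles are upper limits from a listed 0, and dotted lines mark a 2-fold difference. In the comparison of JB6 exosomes with B16 cells, 8 members lie left of the dotted line under every scaling and miR-92a-3p lies right of it.

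JB6 exosomes and B16 cells, the deep libraries, gave the most precise values, although they differ in cell line and in compartment. Of the 10 members 8 were lower in JB6 exosomes, 1 was higher and 1 was neither, while 60.7% of all 501 miRNAs evaluated were lower and 26.1% higher. The lower members spanned all 4 seed groups. The share was 119-fold lower for miR-32-5p (91.0 to 160.0), 101-fold for miR-106b-5p (60.9 to 180.1) and 54.5-fold for miR-17-5p (48.2 to 61.8). miR-20a-5p was 36.0-fold lower (33.3 to 38.9), miR-18a-5p 35.6-fold (22.4 to 60.4), miR-19a-3p 28.6-fold (21.1 to 39.6), miR-93-5p 27.0-fold (24.9 to 29.4) and miR-19b-3p 22.1-fold (16.8 to 29.7). miR-92a-3p was 4.33-fold higher (4.29 to 4.36), and miR-25-3p had a ratio of 0.987 (0.977 to 0.998).

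All 9 of these calls were the same under the 4 other scalings, but the folds were not. TMM factors shifted every log2 ratio by 1.35 and DESeq2 size factors by 2.58. The miR-17 seed group, 36.2-fold lower in JB6 exosomes by the sum of miRNA counts (34.4 to 38.1), was 14.2-fold lower with TMM factors and 6.06-fold lower with DESeq2 size factors. miR-32-5p was 46.9-fold lower with TMM factors, and miR-92a-3p was 11.0-fold higher with TMM factors and 25.9-fold higher with DESeq2 size factors. miR-25-3p was called higher with TMM factors, at a ratio of 2.52, and with DESeq2 size factors, at 5.90. By the sum of miRNA counts 131 of all miRNAs were higher and 304 lower, with TMM factors 165 and 202, and with DESeq2 size factors 204 and 134. The median log2 ratio of the 10 members was -5.00, and that of all 305 evaluated miRNAs listed in both libraries was -1.47. The summed liver, red blood cell and muscle markers given above, mostly miR-122-5p, miR-486-5p and miR-206-3p, are higher in JB6 exosomes and so move with these differences and with those between B16 and JB6 exosomes. Their part in them was not tested. The sum of the liver markers, 25.2% of JB6 exosome reads, takes its share out of the total. With every miRNA among the 10 most abundant of any library left out of all totals, every log2 ratio was 0.62 higher.

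The ratio of members within a library does not depend on any scaling, and it set JB6 exosomes apart from both B16 libraries. The reads of the miR-25 seed group exceeded those of the miR-17 seed group by a factor of 2.82 in B16 exosomes (2.52 to 3.16), 186 in JB6 exosomes (177 to 195) and 1.98 in B16 cells (1.96 to 1.99). The factor in B16 exosomes was 65.8-fold lower than that in JB6 exosomes (58.1 to 74.5) and 1.42 times that in B16 cells (1.27 to 1.60). The factor in JB6 exosomes was 93.8 times that in B16 cells (89.2 to 98.7). Of the reads of all 10 members, the miR-25 seed group made up 73.2% in B16 exosomes (70.9 to 75.3), 99.4% in JB6 exosomes (99.40 to 99.45) and 65.2% in B16 cells (65.1 to 65.4). The miR-17 seed group made up 26.0% in B16 exosomes (23.8 to 28.2), 0.536% in JB6 exosomes (0.509 to 0.563) and 33.0% in B16 cells (32.8 to 33.1). With miR-92a-3p left out, the factor in JB6 exosomes was 31.8 times that in B16 cells, and the factor in B16 exosomes was 0.0580 of that in JB6 exosomes.

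**Figure D3:**
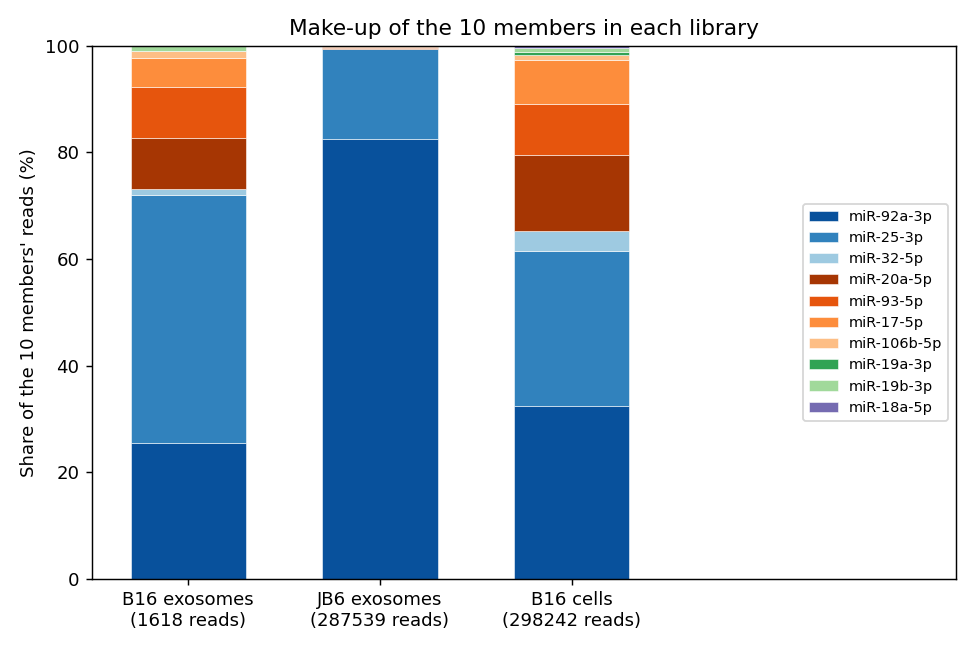
Share of each member (%) in the reads of the 10 members for the libraries of B16 exosomes, JB6 exosomes and B16 cells, with blue for the miR-25 seed group, orange for the miR-17 seed group, green for miR-19 and purple for miR-18. miR-92a-3p and miR-25-3p fill almost the whole bar of JB6 exosomes, where the miR-17 seed group takes 0.536%, against 26.0% in B16 exosomes and 33.0% in B16 cells.

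The same separation appeared between miRNAs of 1 cluster, with the limit that reads of miR-92a-3p may also come from the copy on chromosome X. In miR-17-92, miR-92a-3p exceeded miR-17-5p by a factor of 4.74 in B16 exosomes (3.75 to 6.04), 919 in JB6 exosomes (813 to 1042) and 3.90 in B16 cells (3.85 to 3.95). In miR-106b-25, miR-25-3p exceeded miR-93-5p by a factor of 4.83 in B16 exosomes (4.06 to 5.78), 81.4 in JB6 exosomes (75.1 to 88.4) and 3.05 in B16 cells (3.01 to 3.09), and miR-106b-5p by 32.8 in B16 exosomes (21.7 to 52.0), 3252 in JB6 exosomes (1971 to 5811) and 32.7 in B16 cells (31.5 to 34.0). The B16 exosome to cell ratio of these factors was 1.21 for miR-92a-3p over miR-17-5p (0.961 to 1.55). It was 1.58 for miR-25-3p over miR-93-5p (1.33 to 1.90) and 1.002 for miR-25-3p over miR-106b-5p (0.661 to 1.59). Only the interval of miR-25-3p over miR-93-5p excluded 1.

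Within the seed groups the members also shifted against each other. miR-92a-3p and miR-25-3p were read about equally in B16 cells, with a ratio of 1.11 (1.10 to 1.12), but the ratio was 0.546 in B16 exosomes (0.483 to 0.617) and 4.86 in JB6 exosomes (4.81 to 4.91). It was 2.03-fold lower in B16 exosomes than in B16 cells (1.80 to 2.29) and 8.89-fold lower in B16 exosomes than in JB6 exosomes (7.87 to 10.1). miR-25-3p exceeded miR-32-5p by a factor of 41.9 in B16 exosomes (26.3 to 71.1), 938 in JB6 exosomes (715 to 1256) and 7.96 in B16 cells (7.80 to 8.12). The factor in B16 exosomes was 5.27 times that in B16 cells (3.31 to 8.94), although both carry the seed AUUGCAC. Within the miR-17 seed group, miR-20a-5p exceeded miR-17-5p by a factor of 1.77 in B16 exosomes (1.35 to 2.33), 2.59 in JB6 exosomes (2.24 to 3.001) and 1.71 in B16 cells (1.68 to 1.74), and the B16 exosome to cell ratio of this factor was 1.04 (0.791 to 1.36). miR-93-5p exceeded miR-17-5p by a factor of 1.79 in B16 exosomes (1.37 to 2.36), 2.32 in JB6 exosomes (2.003 to 2.70) and 1.15 in B16 cells (1.13 to 1.17). miR-93-5p exceeded miR-106b-5p by a factor of 6.78 in B16 exosomes (4.36 to 11.0), 39.9 in JB6 exosomes (24.0 to 71.8) and 10.7 in B16 cells (10.3 to 11.2). The last factor was 5.87-fold lower in B16 exosomes than in JB6 exosomes (2.86 to 12.4), and only 15 reads of miR-106b-5p stand behind it in JB6 exosomes.

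The opposite arms of the hairpins, which the choice of members did not use, were mostly scarce. In B16 cells the member exceeded its opposite arm for 9 of the 10 hairpins, from 4.17-fold for miR-18a (3.65 to 4.78) and 32.1-fold for miR-32 (28.8 to 35.9) to 508-fold for miR-92a-3p over miR-92a-1-5p (441 to 589) and 743-fold for miR-20a (573 to 981). Reads of miR-92a-3p and miR-19b-3p may also come from their copies on chromosome X, whose opposite arms were not counted. Their ratios are therefore not those of 1 hairpin. Among the 10 hairpins, miR-106b was the exception. Its 3p arm had 234 reads in B16 exosomes, 2857 in JB6 exosomes and 26086 in B16 cells, and it exceeded the 5p arm 10.2-fold in B16 exosomes (6.62 to 16.4), 190.5-fold in JB6 exosomes (115 to 341) and 9.80-fold in B16 cells (9.42 to 10.2). The sequence of this arm, shown because it outnumbers the named member in every library, does not carry the seed of the miR-17 group:
miR-106b-3p: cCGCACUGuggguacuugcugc
Between B16 exosomes and B16 cells the arm ratio of miR-106b did not differ beyond counting error, at 1.04 (0.674 to 1.67), and in JB6 exosomes it was 19.4 times that in B16 cells (11.7 to 34.8). In B16 exosomes miR-106b-3p was the only opposite arm listed. In JB6 exosomes miR-25-5p had 65 reads and miR-18a-3p had 36, against 18 for miR-18a-5p.

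The paralogues that were not among the members had few reads, apart from miR-92b-3p. From the cluster on chromosome X, miR-106a-5p had 47 reads and miR-20b-5p 92 in B16 cells, both were listed at 0 in B16 exosomes and JB6 exosomes, and miR-18b-5p was listed at 0 in all 3 libraries. miR-106a-5p differs from miR-17-5p at 1 of 23 bases. miR-363-3p, which carries the seed AUUGCAC, was listed at 0 in B16 exosomes and B16 cells, with 13 reads in JB6 exosomes. miR-92b-3p, from chromosome 3, was, like miR-92a-3p, most abundant in JB6 exosomes. It was listed at 0 in B16 exosomes, with 2763 reads in JB6 exosomes and 596 in B16 cells, which made it 8.17-fold higher in JB6 exosomes than in B16 cells (7.48 to 8.94) and at least 3.12-fold lower in B16 exosomes than in JB6 exosomes, with an interval limit nearest to 1 of 1.64-fold. Its sequence resembles that of miR-92a-3p, from which it differs at 2 of 21 bases:
miR-92b-3p: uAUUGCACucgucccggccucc

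Base composition was compared after the values had been seen, because the 2 members near or above the B16 cell level in JB6 exosomes and miR-32-5p share a seed but not the bases after it. G and C made up 69.2% of the bases after the seed in miR-92a-3p, 50% in miR-25-3p and 28.6% in miR-32-5p. The members of the other seed groups, all lower in JB6 exosomes, overlapped this range. They had 53.3% in miR-93-5p, 46.7% in miR-17-5p and 46.2% in miR-106b-5p. The values were 40% in miR-20a-5p, miR-18a-5p and miR-19b-3p and 33.3% in miR-19a-3p. Over the whole miRNA the share of G and C was 57.1% in miR-92a-3p, 50% in miR-25-3p and 31.8% in miR-32-5p, and 63.6% in miR-92b-3p. Across the 270 evaluated miRNAs listed in both libraries and with a RefSeq sequence, the share of G and C and the log2 ratio of JB6 exosomes over B16 cells had coefficients of 0.33 (Spearman) and 0.30 (Pearson), and of 0.31 and 0.27 over the 260 that are not members. The points share the libraries and are not independent. Among these 260, the median log2 ratio was -0.27 for the 144 with at least 50% G and C and -2.69 for the 116 with less. miR-93-5p, at 52.2%, had a log2 ratio of -4.76, far from the median of the first class, and miR-32-5p at -6.90 was below that of the second. For B16 exosomes over B16 cells the coefficients were 0.05 (Spearman) and 0.21 (Pearson) over 128 miRNAs. For B16 exosomes over JB6 exosomes they were -0.27 and -0.18 over 115. The part of base composition in the differences between members was not tested.

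**Figure D4:**
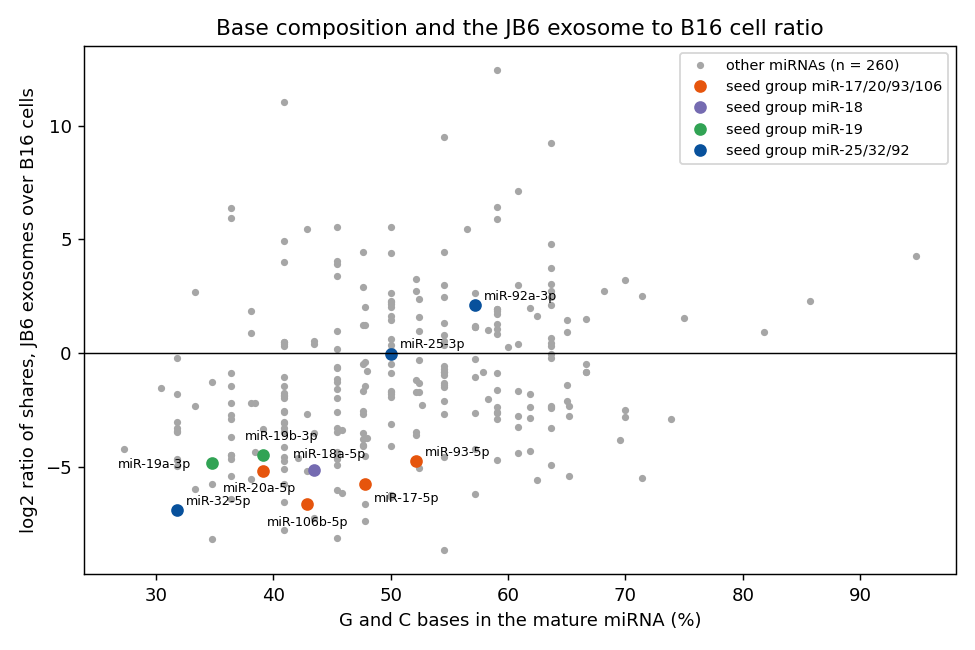
Share of G and C bases in the mature miRNA (%) against the log2 ratio of shares of JB6 exosomes over B16 cells, for the 10 members (coloured by seed group) and 260 other miRNAs (grey). miR-92a-3p and miR-25-3p lie near or above a ratio of 1, and the other 8 members lie between -6.90 and -4.47 on the log2 scale over a range of 31.8% to 52.2% G and C.

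The miRNAs nearest to 4 members were found by their distance in log2 ratios to B16 cells (B16 exosomes and JB6 exosomes, 3 libraries in all) among 131 other miRNAs listed in every library. Nearest to miR-92a-3p was miR-674-3p, at a distance of 0.20, then miR-125b-5p at 0.45 and miR-218-5p at 0.46. Nearest to miR-25-3p were miR-143-3p at 0.51, miR-10b-5p at 0.52 and miR-199a-3p at 0.70. miR-199b-3p had the same log2 ratios as miR-199a-3p and so tied with it, and the same reads may be listed under both names. Nearest to miR-17-5p were miR-7a-5p at 0.42, miR-130b-5p at 0.44 and miR-872-5p at 0.49, and nearest to miR-32-5p were miR-30e-5p at 0.69, miR-30c-5p at 0.89 and let-7g-5p at 1.13. For none of these 4 was another member among the nearest 3. These distances have no counting intervals, and in B16 exosomes miR-32-5p had 18 reads and miR-17-5p 87. The order of close neighbours may therefore not be resolved. For example, miR-20a-5p had log2 ratios of -0.66 in B16 exosomes and -5.17 in JB6 exosomes, against -0.71 and -5.77 for miR-17-5p.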

How the data were processed

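Each deposited file lists the count of reads per mature miRNA, not normalized, per the file headers, and an RPM value that the authors computed from a total larger than the sum of these counts. Reads were processed with bcl2fastq and BWA on mm10, per the submitters' processing notes. For versions, trimming, strand and the counting of reads with several matches, the setting is not given in the sources used. Shares were taken of the summed miRNA counts, 45677 to 7925726 reads per library. Ratios of shares have exact conditional binomial 95% intervals, and ratios of within-library ratios exact conditional (Fisher) intervals (scipy 1.17.1). A listed 0 was taken as 0 to 9 reads, and a call had to hold at both ends. With 1 library per group no test across libraries was run. The alternatives used edgeR 4.0.16 (TMM), DESeq2 1.42.0, totals without the most abundant miRNAs, and the authors' totals of 847694, 5626936 and 8721363 reads in B16 exosomes, JB6 exosomes and B16 cells. RefSeq sequences matched 1623 of 1915 names. All 10 members are named, with their opposite arms, 5 paralogues, fixed markers and, for 4 members, the 3 nearest miRNAs. Members and lists were chosen with earlier results of these data known. The interval scripts were tested on simulated data.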

Additional observations from a re-analysis of the deposited data

How the results depend on the processing

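Ratios between libraries moved with the scaling and, for the miR-25 seed group, with miR-92a-3p. For B16 exosomes against B16 cells, the number of lower members, 1 by the sum of miRNA counts, was 6 with TMM factors and 10 with the authors' totals. It stayed at 1 with DESeq2 size factors and with totals without the most abundant miRNAs. Of all 422 miRNAs evaluated, 7.82% were lower by the sum, 22.0% with TMM factors and 60.9% with the authors' totals. There the ratio of the miR-17 seed group was 0.366 with TMM factors and 0.0440 with the authors' totals, that of miR-19 was 0.286 and 0.0344, and with the authors' totals that of miR-18 was at most 0.0819 and that of the miR-25 seed group was 0.0626. The ratios of miR-106b-5p, miR-19b-3p and miR-25-3p, above 1 by the sum, were 0.740, 0.591 and 0.741 with TMM factors and 0.0889, 0.0710 and 0.0891 with the authors' totals, and the miR-25 seed group was at 0.521 with TMM factors. For B16 exosomes against JB6 exosomes, 2 members were lower with TMM factors, with DESeq2 size factors and with the authors' totals, and 3 instead of 6 were higher with the authors' totals and with a minimum of 100 reads, which removes members by its construction. Of all 300 miRNAs evaluated, 32.3%, 36.3% and 51.0% were lower under these scalings in that order, against 11.7% by the sum. With the authors' totals 13.3% were higher, against 31.3% by the sum. The share over all miRNAs was not computed for the minimum of 100 reads. With the authors' totals the ratio was 1.81 for the miR-17 seed group and 0.978 for miR-19, and that of miR-25-3p was 0.103, against 0.295 with TMM factors and 0.233 with DESeq2 size factors. Without miR-92a-3p the ratio of the miR-25 seed group reversed, to 1.56, while no scaling changed its direction. For JB6 exosomes against B16 cells, 2 members were higher with TMM factors and with DESeq2 size factors, where the ratio of miR-25-3p was 2.52 and 5.90, and without miR-92a-3p the ratio of the miR-25 seed group reversed, to 0.878, while no scaling changed its direction. Of all 501 miRNAs evaluated, 32.9% were higher with TMM factors and 40.7% with DESeq2 size factors, against 26.1% by the sum. The summed miRNA counts were 5.39% of the authors' total in B16 exosomes, 79.9% in JB6 exosomes and 90.9% in B16 cells. By arithmetic, these unequal shares set the shifts with the authors' totals. What those totals count is not known, and why the shares differ was not tested. The cause of the other shifts was not tested beyond the scaling itself. Of the 17 calls of single members over the 3 comparisons, 14 were the same under all 4 other scalings. The within-library factors of the miR-25 seed group over the miR-17 seed group kept their direction and call with the paralogues added and, as an alternative chosen after seeing the data, without miR-92a-3p. The B16 exosome library limits the rest, since a miRNA below 197 RPM there is listed as 0. No paired analysis was possible because each group held 1 library.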
